A study of Mus musculus with 4 samples.

Results

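Transcripts of 9 mouse genes that carry lipids between cells or bind, take up or degrade amyloid beta were followed across the cell classes of the retina. The genes were Apoe, Clu, Lrp1, Mme, Ide, Ece1, Sorl1, Abca1 and Cst3, chosen by name from the 32285 genes of each count matrix, and all 9 were present in all 4 libraries. The libraries are droplet-based single-cell RNA-seq (10x Genomics) of dissociated mouse retina at 30 days of age. There was 1 library from an NLGF female, 1 from an NLGF male, 1 from a wild-type (WT) female and 1 from a WT male, each from 1 retina of 1 mouse. NLGF is the usual name, in work on mouse models of Alzheimer's disease, of a knock-in App allele with a humanised amyloid beta sequence and familial disease mutations, expressed from the mouse App locus and therefore without a transgene promoter. The labels give the genotype name and the sex, and give neither zygosity, litter nor sequencing batch. The title of the study places an endoplasmic reticulum stress response in Müller glia, and the comparison of NLGF with WT asks here whether the 9 genes differed at this age and in which cells. Each genotype is 2 mice, 1 of each sex. The p-values and standard errors (SE) below come from variances moderated over all genes of a comparison. They do not measure only the spread of 1 gene between the 2 libraries per genotype.

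As background, Apoe and Clu encode apolipoprotein E and clusterin, the secreted carriers that move cholesterol and other lipids and bind amyloid beta outside cells. Lipid is loaded onto them by the efflux transporter ABCA1, and particles are taken up by receptors of the LDL receptor family such as LRP1, while SORLA, the product of Sorl1, sorts the amyloid precursor protein away from amyloid beta production. Neprilysin (Mme), insulin-degrading enzyme (Ide) and endothelin-converting enzyme 1 (Ece1) are metalloproteases that cleave amyloid beta, and cystatin C (Cst3) is a secreted inhibitor of cysteine cathepsins that binds amyloid beta. In the brain these carriers come mainly from astrocytes. In the retina Müller glia, the radial glia that span its full depth, take much of the role that astrocytes have in the brain.

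Apoe and Abca1 are both known targets of the oxysterol receptor LXR, and the 250 bases before their annotated start sites are shown because these genes stand for the carrier and its efflux transporter. Sequences are from RefSeq on GRCm38.p6, read 5′ to 3′ on the gene's strand, and 8 of the 9 genes had an entry. The windows of Mme, Ide and Cst3 lay inside or overlapped the gene bounds given for them below. Capitals mark matches to the motifs searched on both strands.
Apoe, chr7:19699189-19699438, minus strand: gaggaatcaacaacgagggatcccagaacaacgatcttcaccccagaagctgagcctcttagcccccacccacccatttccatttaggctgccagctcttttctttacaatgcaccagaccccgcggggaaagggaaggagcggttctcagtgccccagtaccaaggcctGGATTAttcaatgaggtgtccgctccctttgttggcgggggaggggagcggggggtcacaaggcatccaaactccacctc
Abca1, chr4:53159896-53160145, minus strand: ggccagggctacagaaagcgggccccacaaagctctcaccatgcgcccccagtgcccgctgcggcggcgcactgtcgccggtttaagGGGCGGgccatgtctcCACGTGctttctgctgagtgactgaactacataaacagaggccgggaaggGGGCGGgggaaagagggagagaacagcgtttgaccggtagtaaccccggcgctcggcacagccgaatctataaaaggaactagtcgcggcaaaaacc
In the Apoe window the capitals mark the photoreceptor factor motif TAATCC (CRX), on the opposite strand, starting 80 bases before the start site. TAATCC was found in 6.25% of all 32851 promoter windows of this length. In the Abca1 window they mark 2 SP1 boxes (GGGCGG, in 32.7% of all windows) and an E-box (CACGTG, in 6.02%). For LXR only the exact consensus was searched, 2 copies of AGGTCA in the same direction with 4 bases between them (in 0.0152% of all windows). Imperfect copies were not searched. This exact consensus and an ATF4 site (TGATGNAAN, in 3.44%) were found in none of the 8 windows. An ETS site (GGAAGT, in 19.7%) was found only in that of Sorl1. None of these matches overlapped another. A match is a string of letters and not a bound site, and a missing match says only that these letters are not in this window.

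The files held 35191 barcodes, and 31559 cells remained after filters on genes, mitochondrial share and doublet score, with 7203 to 8151 cells per library and median counts of 897 to 1105 unique molecular identifiers (UMIs) per cell. They formed 18 clusters, of which 14 were assigned to 8 classes from marker genes, and the class names rest on these markers alone. All 10 Müller, 9 microglial, 9 rod, 8 cone and 9 cone bipolar markers were highest in their own class, as were 7 of 8 endothelial, 6 of 7 rod bipolar and 7 of 9 amacrine markers. The endothelial cluster was led by Rgs5, a marker of pericytes, and the Müller class joined a cluster with a median of 9320 UMIs per cell and a shallow cluster with 807. Between 17 and 34 barcodes were shared by any pair of libraries. Levels are given as CPM, the UMIs of a gene per 1e+06 UMIs of the class in that library, and are a description with no test between classes, which were measured in the same 4 libraries. The 9 genes were left out of the genes used for clustering. Each gene had its own distribution over the classes, which the plot of levels by class shows.

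**Figure D1:**
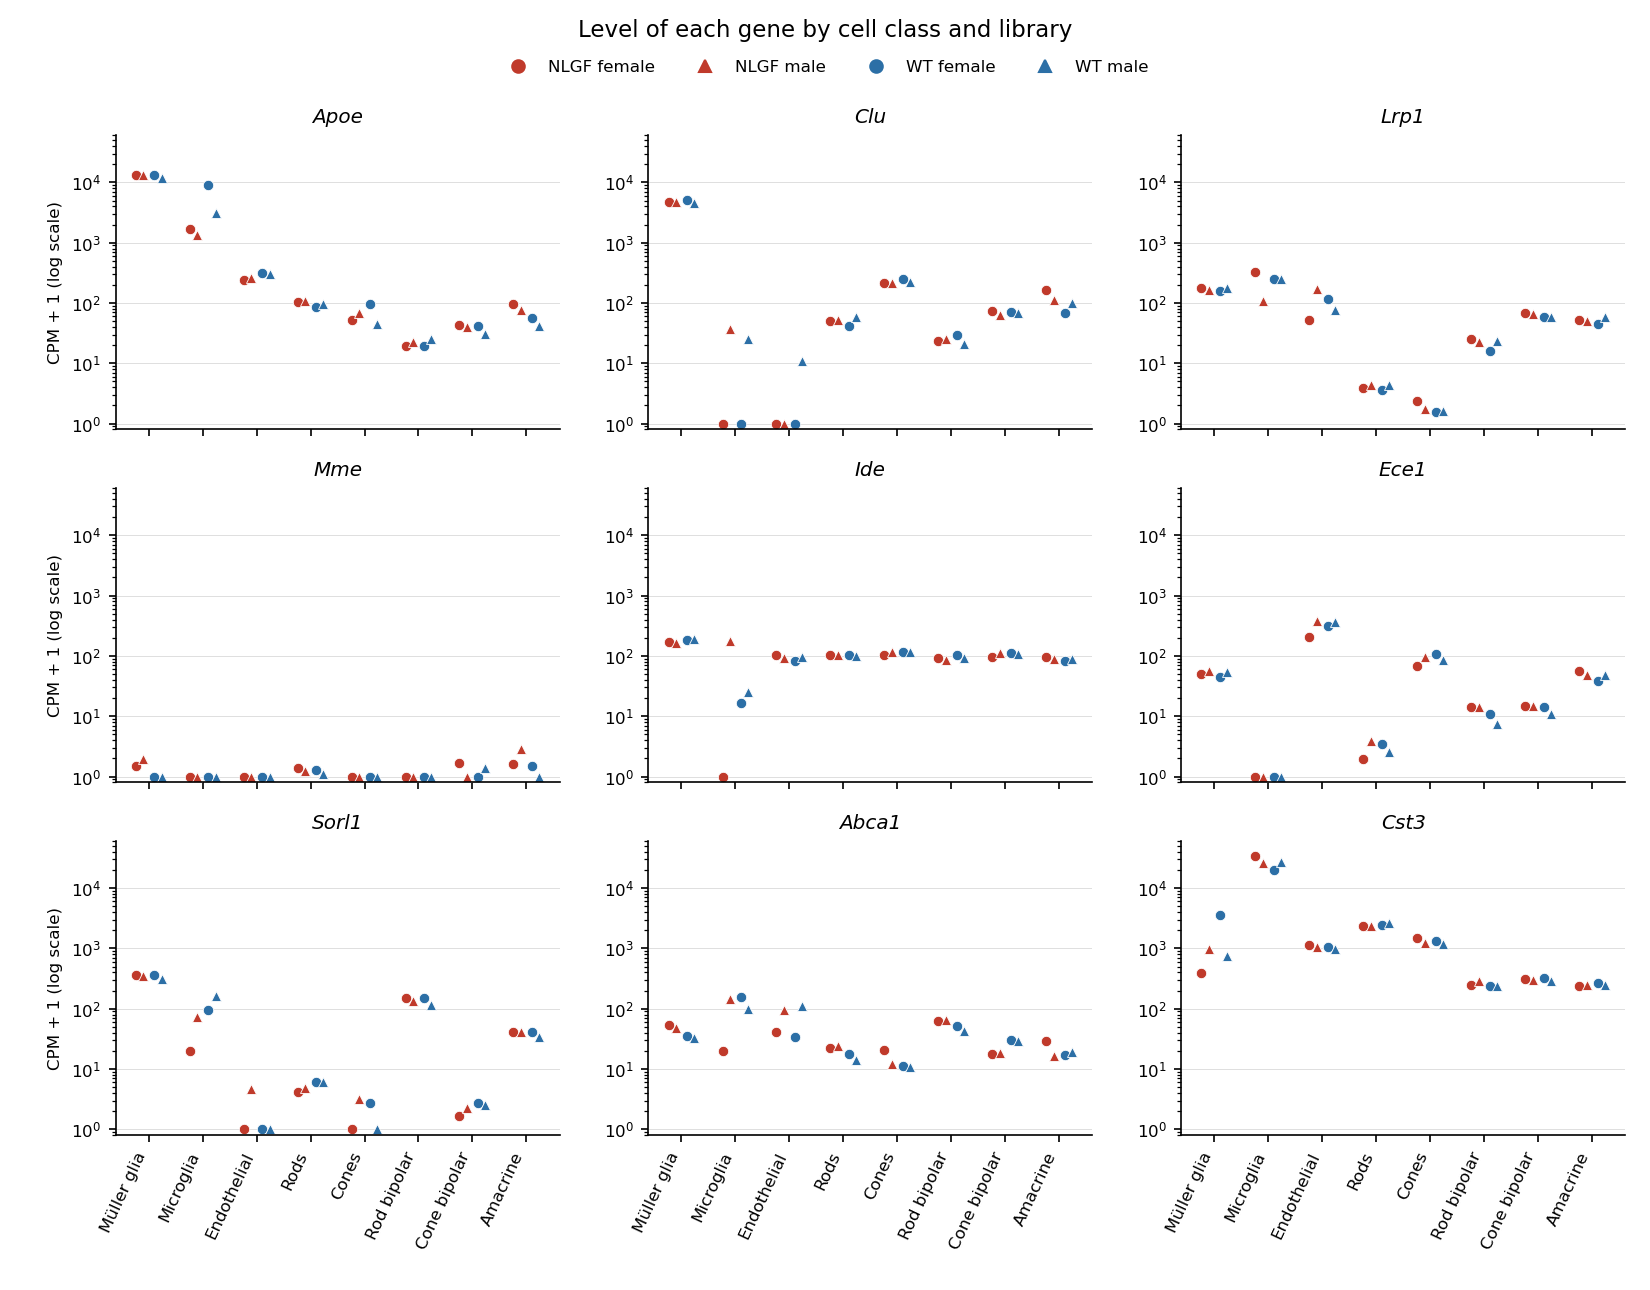
Level of each of the 9 genes (y axis, CPM + 1 on a log scale) in 8 cell classes (x axis), with 1 point per library, NLGF in red and WT in blue, circles for females and triangles for males. Apoe and Clu were highest in Müller glia, Cst3 in microglia and Ece1 in endothelial cells, Ide was between 87.2 and 175 CPM on average in all classes but microglia, and Mme stayed near 0 in all 8.

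Apoe (ENSMUSG00000002985, GRCm38 chromosome 7, 19696109 to 19699188, minus strand) was the most class-restricted carrier. Müller glia were 4.56% of the cells and held 9.75% of all UMIs but 94.1% of the Apoe UMIs. The level in Müller glia was 13446 and 13477 CPM in the NLGF female and male, against 13273 and 11833 CPM in the WT female and male. The lowest of the 4 values was that of the WT male, and the NLGF values lay above both WT values by less than the gap between the WT libraries. In the deep Müller cluster Apoe averaged 13705 CPM (12589 to 14157 over the libraries) and in the shallow cluster 7136 CPM (5393 to 9120). Over all 4 libraries the order after Müller glia (13007 ± 788 CPM, SD, n = 4) was microglia (3780 ± 3588), endothelial cells (282 ± 34.3), rods (97.5 ± 9.35), amacrine cells (66.9 ± 23.7), cones (63.9 ± 22.6), cone bipolar cells (38.1 ± 5.42) and rod bipolar cells (20.7 ± 2.73). The ranges of rods, amacrine cells and cones overlapped with that of their neighbour in this order, so these classes were not separated beyond their spread. All other neighbours were separated.

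RNA set free during dissociation is caught in droplets of every class, so low levels of a gene this abundant have to be read against genes used mainly by Müller glia. These markers are not all exclusive to that class, since Dkk3 reached 17.5% of its Müller level in amacrine cells and Glul 6.87% in endothelial cells. Apoe in rods was 0.75% of its Müller level, and the 10 Müller markers ranged from 0.439% to 2.11% in rods, with a median of 0.911%. The share of rods with an Apoe UMI was 11.1%, and it was 7.05% in the 10506 of 25179 rods that held at least 1000 UMIs and were thinned to that number, the shallower rods being left out. The part of free Müller RNA in both shares was not tested. Within the rods Apoe was highest in the shallow clusters, with 187 CPM in a cluster with a median of 702 UMIs per cell and 55.3 CPM in the deepest cluster, with 2249. Apoe in cones, cone bipolar and rod bipolar cells likewise lay between 0.16% and 0.50% of the Müller level. In amacrine cells it was 0.52%, below the marker median of 0.631% there. In microglia it was 32.6% of the Müller level, where the markers had a median of 0.825% and reached 5.69%. In endothelial cells it was 2.23%, above the marker median of 0.155% and below the highest marker, Glul, at 6.87%.

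**Figure D2:**
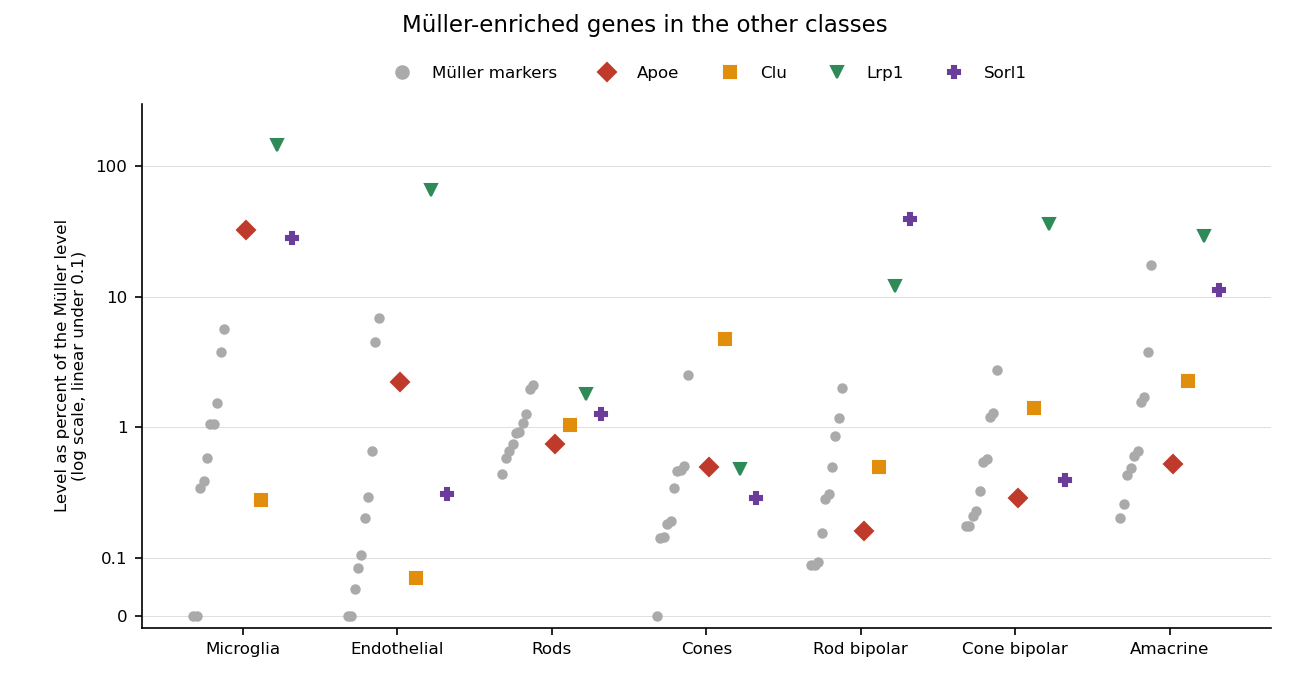
Level of Apoe, Clu, Lrp1 and Sorl1 in 7 classes (x axis) as a percent of the level in Müller glia (y axis, log scale that is linear under 0.1), beside the 10 Müller markers in grey, from UMIs pooled over the 4 libraries. Apoe lay inside the range of the markers in all classes but microglia, while Clu in cones, Sorl1 in rod bipolar cells and Lrp1 in microglia, endothelial, cone bipolar and amacrine cells were among the values above it.

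The 95% intervals given here and below are approximate, taken as the estimate ± 2 SE. Between genotypes, Apoe in Müller glia had a log2 fold change of NLGF over WT of 0.06 ± 0.08 (SE, n = 2 per genotype, edgeR quasi-likelihood test, adjusted p = 0.851), with a 95% interval from −0.10 to 0.22. Without the WT female the value was 0.14 and passed the threshold (edgeR adjusted p = 0.00646), and under the other alternatives the adjusted p lay between 0.687 and 1.0. In endothelial cells the levels were 243 and 264 CPM in NLGF and 319 and 300 CPM in WT, a log2 fold change of −0.28 ± 0.23 (edgeR adjusted p = 0.981). Amacrine cells had 94.7 and 76.9 CPM in the NLGF female and male, against 55.0 and 41.0 CPM in the WT female and male. Both NLGF values lay above both WT values, and the log2 fold change was 0.78 ± 0.17 (edgeR adjusted p = 0.185). It passed the threshold with no filter on low counts (edgeR adjusted p = 0.00247) and without the NLGF male (0.00284), while DESeq2 gave an adjusted p of 1.0, and it was 0.32 with high doublet scores kept. The Müller marker Glul, in the same amacrine sums, had 199 and 137 CPM in the NLGF female and male and 114 and 119 CPM in the WT female and male. Another, Rlbp1, had 9.35 and 6.95 CPM in the NLGF female and male and 2.92 and 5.66 CPM in the WT female and male. These Rlbp1 levels rest on 6 to 15 UMIs per library. The part of free Müller RNA in the Apoe values was not tested.

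Microglia, the resident macrophages of the retina, had 16 and 12 cells in the NLGF female and male and 22 and 30 cells in the WT female and male. Their Apoe level was 1663 and 1346 CPM in the NLGF female and male, against 9044 and 3065 CPM in the WT female and male. The groups did not overlap, and the WT female stood above the other 3 libraries. The log2 fold change was −1.95 ± 0.44 (SE, n = 2 per genotype) and did not pass the threshold (edgeR adjusted p = 0.321). The counts were concentrated in single cells. The cell with most Apoe UMIs held 42 of 88 in the NLGF female (47.7%) and 19 of 38 in the NLGF male (50.0%), against 457 of 585 in the WT female (78.1%) and 155 of 249 in the WT male (62.2%). The cell with 457 Apoe UMIs also held 253 UMIs of the 9 microglial markers and 18 of the Müller markers among its 13993 UMIs. Without the top cell of each library the levels were 1032 and 722 CPM in the NLGF female and male and 2525 and 1207 CPM in the WT female and male, a log2 fold change of −1.03 ± 0.39 (edgeR adjusted p = 0.387). This setting was chosen after the data were seen. The call appeared without the NLGF female (log2 fold change −2.06), without the NLGF male (−1.88) and without the WT male (−2.56), with edgeR adjusted p of 4.16e-05, 2.57e-05 and 0.00204, and without the WT female the value was −1.06 (0.995). In the median microglial cell Apoe had 1 and 1.5 UMIs in the NLGF female and male, and 1.5 and 1 in the WT female and male.

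**Figure D3:**
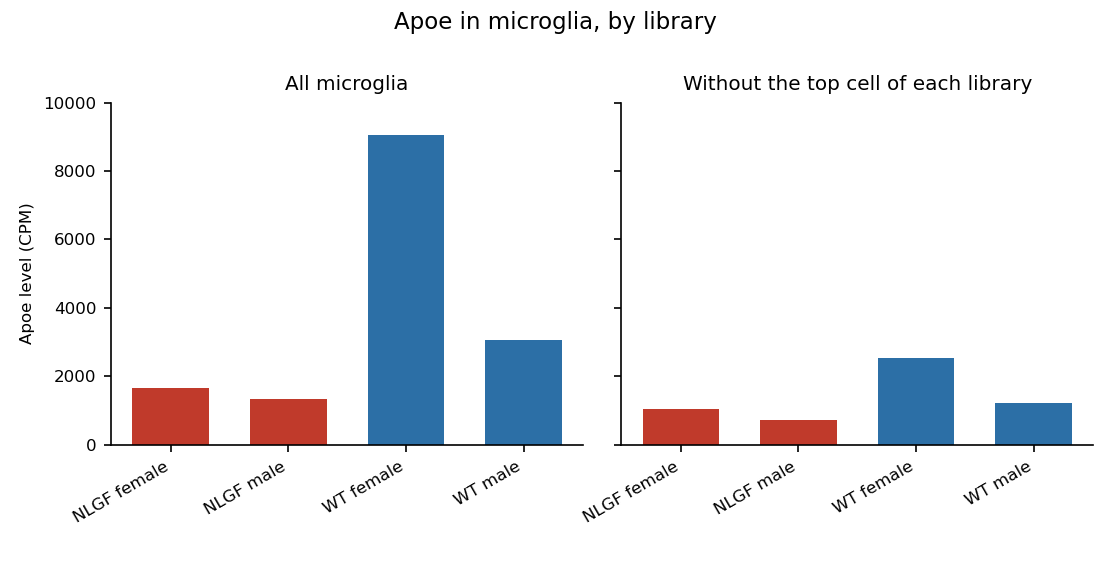
Apoe level in microglia (y axis, CPM) in the 4 libraries (x axis), with all cells (left panel) and without the cell with most Apoe UMIs in each library (right panel), NLGF in red and WT in blue, 1 bar per library. Without that cell the levels were 1032 and 722 CPM in the NLGF female and male, against 2525 and 1207 CPM in the WT female and male.

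Clu (ENSMUSG00000022037, chromosome 14, 65968483 to 65981547, plus strand) was also a Müller transcript, with 85.4% of its UMIs in that class. Its level there was 4738 and 4776 CPM in the NLGF female and male, against 5144 and 4537 CPM in the WT female and male. The NLGF values lay between the WT values, and the log2 fold change was −0.06 ± 0.09 (SE over 2 libraries of each genotype, edgeR adjusted p = 0.863; 95% interval −0.25 to 0.12). Cones came next with 223 ± 16.4 CPM (SD, n = 4), followed by amacrine cells (110 ± 39.5), cone bipolar cells (68.0 ± 4.84), rods (49.6 ± 6.45) and rod bipolar cells (23.8 ± 3.45). Amacrine and cone bipolar cells overlapped in range, and the others in this list were separated from their neighbours. Microglia and endothelial cells held 3 Clu UMIs each. A Clu UMI was found in 73.4% of cones, against 5.92% of rods. Thinned to 1000 UMIs, with shallower cells left out, the shares were 19.4% of cones and 4.09% of rods. Clu in cones was 4.72% of its Müller level, above all 10 Müller markers there, which had a median of 0.269% and a highest value of 2.51%.

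Outside the named classes Clu reached 273 CPM (166 to 368 over the libraries) in an unnamed cluster led by Calb1, Sncg, Nefm and Nefl, and 204 CPM (176 to 221) in another led by Cdh9. In amacrine cells it was split by cluster, with 149 CPM (97.4 to 216) in the cluster led by Gad1 and Gad2 and 9.66 CPM (2.64 to 21.7) in a smaller cluster led by Dync1i1. By genotype, the amacrine level was 163 and 111 CPM in the NLGF female and male, against 68.1 and 98.3 CPM in the WT female and male, with no overlap. The log2 fold change of Clu there was 0.71 ± 0.18 (edgeR adjusted p = 0.444). It passed the threshold with no filter on low counts (edgeR adjusted p = 0.000285) and without the NLGF male (4.31e-06), while DESeq2 gave an adjusted p of 1.0, and it was 0.42 without the NLGF female and 0.43 without the WT female. The Glul and Rlbp1 values given for amacrine cells stand beside this gene too. In cones Clu was 211 and 212 CPM in NLGF and 247 and 224 CPM in WT, a log2 fold change of −0.16 ± 0.11 (edgeR adjusted p = 0.896).

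Abca1 (ENSMUSG00000015243, chromosome 4, 53030787 to 53159895, minus strand), the transporter that loads lipid onto apolipoproteins, was spread over all classes. It averaged 103 ± 61.2 CPM in microglia, 69.6 ± 38.9 in endothelial cells, 54.1 ± 9.86 in rod bipolar cells, 41.4 ± 10.4 in Müller glia, 22.8 ± 6.99 in cone bipolar cells, 19.6 ± 6.19 in amacrine cells, 18.3 ± 4.41 in rods and 12.7 ± 4.81 in cones (SD, n = 4). In this order only Müller glia and cone bipolar cells were separated beyond their spread. In Müller glia the level was 53.4 and 46.7 CPM in the NLGF female and male, against 34.0 and 31.5 CPM in the WT female and male. The groups did not overlap, and the log2 fold change of 0.58 ± 0.18 had an unadjusted p of 0.00432 and did not pass the threshold (edgeR adjusted p = 0.174). It was 0.59 without the Müller-class cells that carried astrocyte markers. Rods had 21.0 and 22.7 CPM in the NLGF female and male, against 16.6 and 12.9 CPM in the WT female and male (log2 fold change 0.50 ± 0.15, edgeR adjusted p = 0.568), and the value passed the threshold without the WT female (0.64, edgeR adjusted p = 0.0215). Rod bipolar cells had 60.6 and 63.0 CPM in NLGF and 51.4 and 41.3 CPM in WT (0.42 ± 0.17, edgeR adjusted p = 0.771). Cone bipolar cells had the opposite order, with 16.5 and 17.1 CPM in the NLGF female and male, against 29.5 and 28.3 CPM in the WT female and male. Their log2 fold change was −0.80 ± 0.21 with an unadjusted p of 0.00137 and an edgeR adjusted p of 0.48, and the difference between these classes was not tested. The genotype effect in Müller glia minus that in rods was 0.06 ± 0.24 (edgeR adjusted p = 0.988).

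Lrp1 (ENSMUSG00000040249, chromosome 10, 127538161 to 127621148, minus strand), a large endocytic receptor for apolipoprotein E and amyloid beta, was found in glia, vessels and inner neurons and was near 0 in photoreceptors. It averaged 230.3 ± 89.8 CPM in microglia, 170 ± 10.2 in Müller glia, 103 ± 52.3 in endothelial cells, 61.6 ± 5.81 in cone bipolar cells, 50.8 ± 6.30 in amacrine cells, 20.7 ± 4.04 in rod bipolar cells, 3.04 ± 0.39 in rods and 0.84 ± 0.39 in cones (SD, n = 4). The first 5 classes overlapped with their neighbours in range, and the last 3 were separated from the class above them. Lrp1 in cones was 5 UMIs in all, 0.48% of the Müller level, against a marker median of 0.269%. Müller glia had 179 and 164 CPM in the NLGF female and male, against 158 and 177 CPM in the WT female and male, which overlap. The log2 fold change was −0.01 ± 0.10 (SE over 2 libraries of each genotype, edgeR adjusted p = 0.979; 95% interval −0.21 to 0.18). In endothelial cells the level was 50.7 and 170 CPM in the NLGF female and male, against 116 and 74.2 CPM in the WT female and male. The log2 fold change there was 0.46 ± 0.38 (edgeR adjusted p = 0.981), and without the NLGF male it was −0.88. In microglia the NLGF female and male had 17 and 3 UMIs (321 and 106 CPM), against 16 and 20 UMIs (247 and 246 CPM) in the WT female and male.

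Sorl1 (ENSMUSG00000049313, chromosome 9, 41964720 to 42124297, minus strand), the sorting receptor, was highest in Müller glia at 345 ± 25.4 CPM (SD, n = 4) and second in rod bipolar cells at 136 ± 16.6 CPM. Müller glia held 54.7% of Sorl1 UMIs and rod bipolar cells 17.2%. Müller glia had 368 and 344 CPM in the NLGF female and male, against 358 and 310 CPM in the WT female and male, which overlap (log2 fold change 0.06 ± 0.10, edgeR adjusted p = 0.904; 95% interval −0.15 to 0.26). Rod bipolar cells had 151 and 133 CPM in NLGF and 147 and 114 CPM in WT (0.12 ± 0.12, edgeR adjusted p = 0.917). The neighbouring class of cone bipolar cells, which relay cone signals, had 1.29 ± 0.47 CPM, and cones had 6 Sorl1 UMIs in all. Microglia (85.6 ± 58.5 CPM, 22 UMIs) and amacrine cells (38.5 ± 3.52 CPM) lay in between, with microglia overlapping in range with both neighbours. Among amacrine cells the cluster led by Dync1i1 had 86.1 CPM (77.0 to 92.8 over the libraries) and the cluster led by Gad1 had 19.7 CPM (14.5 to 23.5), the reverse of Clu, and these ranges did not overlap. The unnamed cluster led by Calb1 had 238 CPM (185 to 277). In rods Sorl1 was 3.13 and 3.93 CPM in the NLGF female and male and 5.05 and 5.13 CPM in the WT female and male (−0.59 ± 0.26, edgeR adjusted p = 0.600). That is 1.27% of the Müller level, inside the marker range, and the part of free Müller RNA in it was not tested.

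Mme (ENSMUSG00000027820, chromosome 3, 63241537 to 63386030, plus strand), which encodes neprilysin, was close to the limit of detection and was tested in no class. The unnamed cluster led by Calb1 held 32 Mme UMIs, 62.7% of all, in 12 of its 571 cells. By library this cluster had 10 and 5 UMIs in the NLGF female and male (12.3 and 6.0 CPM) and 2 and 15 UMIs in the WT female and male (2.3 and 15.4 CPM), and the groups overlap. Rods held 8 UMIs, amacrine cells 6, Müller glia 3 and cone bipolar cells 2. Cones, rod bipolar, endothelial and microglial cells held 0 in every library. A count of 0 allows a level of up to 1.72 to 2.18 CPM in cones, 10.1 to 30.4 CPM in endothelial cells and 36.9 to 106 CPM in microglia over the 4 libraries, from a floor of 3 counts that covers counting error only.

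Ide (ENSMUSG00000056999, chromosome 19, 37268743 to 37337852, minus strand), the insulin-degrading enzyme, was the most even of the 9 genes. All classes but microglia averaged between 87.2 ± 4.55 CPM in amacrine cells and 175 ± 13.6 CPM in Müller glia (SD, n = 4), and rods, with 42.4% of all UMIs, held 37.3% of the Ide UMIs. Only Müller glia were separated from the next class in the order, cones at 112 ± 6.15 CPM. Microglia held 8 Ide UMIs. The unnamed cluster led by Cdh9 stood above all classes at 402 CPM (366 to 467 over the libraries), with an Ide UMI in 85.2% of its 283 cells. In Müller glia the level was 168 and 162 CPM in the NLGF female and male, against 179 and 193 CPM in the WT female and male. The groups did not overlap, and the log2 fold change of −0.22 ± 0.09 had an unadjusted p of 0.0289 and an edgeR adjusted p of 0.395. In rods the 4 values lay between 100.2 and 104 CPM, and the log2 fold change was −0.09 ± 0.08 (edgeR adjusted p = 0.805).

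Ece1 (ENSMUSG00000057530, chromosome 4, 137862237 to 137965229, plus strand), the endothelin-converting enzyme, was highest in endothelial cells at 314 ± 78.8 CPM and next in cones at 88.2 ± 16.8 CPM (SD, n = 4), and these ranges did not overlap. Müller glia (49.8 ± 5.27) and amacrine cells (46.6 ± 6.92) overlapped with each other, cone bipolar (12.7 ± 1.80) and rod bipolar cells (10.7 ± 3.23) likewise, and rods had 1.95 ± 0.87 CPM. Microglia held 0 Ece1 UMIs, which allows up to 36.9 to 106 CPM. The endothelial level was 203 and 372 CPM in the NLGF female and male, against 312 and 368 CPM in the WT female and male, which overlap (log2 fold change −0.16 ± 0.25, edgeR adjusted p = 0.993). Cones had 66.7 and 93.0 CPM in the NLGF female and male, against 107 and 85.9 CPM in the WT female and male (−0.28 ± 0.17, edgeR adjusted p = 0.887). Müller glia had 48.6 and 55.4 CPM in NLGF and 43.1 and 52.1 CPM in WT (0.07 ± 0.17, edgeR adjusted p = 0.935).

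Cst3 (ENSMUSG00000027447, chromosome 2, 148871722 to 148875692, minus strand), which encodes cystatin C, was by level a microglial gene and by amount a rod gene. Microglia had 34315 and 26320 CPM in the NLGF female and male, against 19944 and 26649 CPM in the WT female and male, which overlap (log2 fold change 0.42 ± 0.34, SE, n = 2 per genotype, edgeR adjusted p = 0.767). Every microglial cell held a Cst3 UMI. Rods held 70.4% of all Cst3 UMIs, with 2381 and 2396 CPM in the NLGF female and male, against 2489 and 2615 CPM in the WT female and male. The rod groups did not overlap, the log2 fold change was −0.17 ± 0.10 (edgeR adjusted p = 0.674), and without the WT female it was −0.25 and passed the threshold (0.00187). Within rods the deepest cluster averaged 3643 CPM and the others 878 to 2072 CPM. This cluster held 17.7% and 19.3% of the rods of the NLGF female and male, against 20.6% and 30.3% of the rods of the WT female and male, and the part of this makeup in the rod values was not tested. Inside it Cst3 was 3665 and 3512 CPM in the NLGF female and male, against 3680 and 3716 CPM in the WT female and male. The groups were kept apart there only by the gap from 3665 to 3680 CPM, and the difference was not tested. Cones had 1304 ± 141 CPM and endothelial cells 1064 ± 64.3 CPM (SD, n = 4). Cone bipolar, rod bipolar and amacrine cells had 306 ± 18.5, 252 ± 23.9 and 249 ± 10.1 CPM, which is 12.3%, 10.2% and 10.1% of the rod level, where the 9 rod markers had medians of 3.48%, 2.60% and 2.49% and highest values of 14.1%, 3.43% and 3.16%. In cone bipolar cells only Gngt1, at 14.1%, lay above Cst3, and the next highest of these markers, Sag, was at 3.97%.

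In Müller glia Cst3 was 392 and 959 CPM in the NLGF female and male, against 3549 and 749 CPM in the WT female and male. The WT female stood above the other 3 libraries, and the NLGF male lay above the WT male, so the groups overlapped. The log2 fold change was −1.70 ± 0.45 (SE, n = 2 per genotype, unadjusted p = 0.00162, edgeR adjusted p = 0.103), and without the WT female it was −0.20 (edgeR adjusted p = 0.435). It passed the threshold in the deep cluster alone (−1.86), with high doublet scores kept (−1.50), with no filter on low counts (−1.69) and without any 1 of the other 3 libraries, and DESeq2 gave −1.71 with an adjusted p of 1.0. The counts lay in few cells, with 1007 Cst3 UMIs in 1 cell of the NLGF male and 1611, 1245 and 1091 in 3 cells of the WT female, while the median Müller cell had 1 Cst3 UMI in 3 libraries and 2 in the WT female. Each of these 4 cells carried UMIs of all 5 genes used to mark astrocytes here (S100b, Pax2, Gfap, Igfbp5 and Pdgfra), none of any microglial marker, and 232 to 332 UMIs of Müller markers. Cells with at least 2 of the 5 astrocyte markers numbered 6 and 11 in the NLGF female and male and 11 and 8 in the WT female and male, and held 7.56% and 60.0% of the Cst3 UMIs of the NLGF Müller class and 87.2% and 32.7% of those of the WT Müller class. Their Cst3 level was 1068 and 10616 CPM in the NLGF female and male, against 30465 and 6503 CPM in the WT female and male. Microglia ranged from 19944 to 34315 CPM over the libraries. Pax2, which defines retinal astrocytes, had 0 and 2 UMIs in the NLGF female and male and 8 and 0 in the WT female and male, and Gfap had 4.86 and 45.3 CPM in the NLGF female and male and 203 and 9.83 CPM in the WT female and male. A sixth listed astrocyte marker, Slc14a1, was not used to pick these cells and had 151 and 154 CPM in the NLGF female and male and 97.5 and 94.4 CPM in the WT female and male. Summed over all 6 markers the level was 193 and 301 CPM in the NLGF female and male and 778 and 167 CPM in the WT female and male.

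Without these cells Cst3 was 373 and 405 CPM in the NLGF female and male, against 505 and 524 CPM in the WT female and male. The groups then did not overlap, and the log2 fold change was −0.44 ± 0.11 (SE over 2 libraries of each genotype, edgeR adjusted p = 0.0320). Over the 4 libraries together, Cst3 in the Müller class was 48.6% of its rod level, where the 9 rod markers ranged from 4.01% to 6.27% with a median of 5.15%, and without the astrocyte-marker cells these values were 18.0% for Cst3 and 4.08% to 6.34% for the rod markers. The part of free rod RNA in the Cst3 values was not tested. The genotype effect on Cst3 in Müller glia minus that in rods was −1.28 ± 0.20 on the log2 scale (edgeR adjusted p = 7.62e-07). This SE and p-value come from variances moderated over all genes. They do not measure the spread of Cst3 itself between libraries, which was wide in Müller glia. In this comparison 0.323% of 13606 genes passed. Outside the alternative settings, the Cst3 difference was the only value of the 9 genes past the threshold in any comparison. It fell short of the threshold without the astrocyte-marker cells (−0.27, edgeR adjusted p = 0.639), without the WT female (−0.027, 0.972), without the NLGF female (−0.67, 0.864) and with DESeq2 (−1.30, adjusted p = 1.0).

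**Figure D4:**
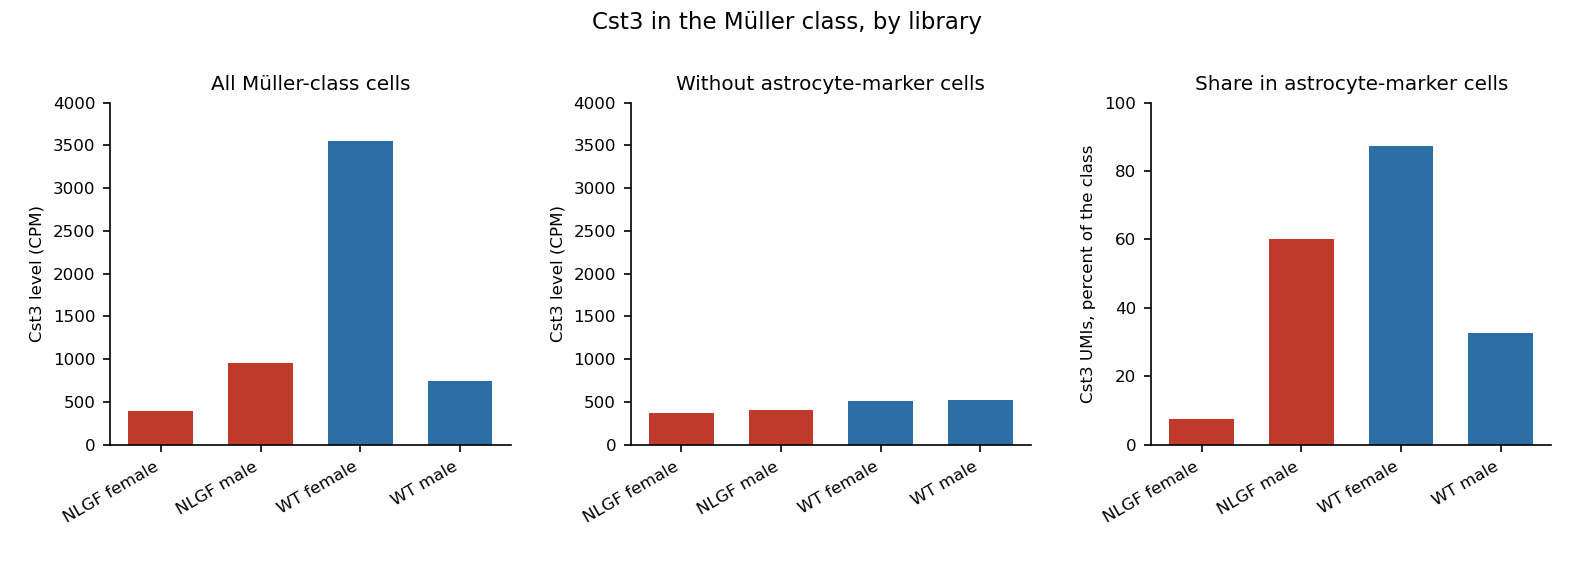
Cst3 in the Müller class by library (x axis), as CPM over all cells (left), as CPM without the cells that carried at least 2 of 5 astrocyte markers (middle), and as the percent of the class's Cst3 UMIs that lay in those cells (right), NLGF in red and WT in blue, 1 bar per library. Without those cells the levels were 373 and 405 CPM in NLGF and 505 and 524 CPM in WT.

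Counted over the 9 genes, 0 passed the threshold between NLGF and WT in any of the 8 classes with edgeR's quasi-likelihood test or with DESeq2 in its place. Some of the other alternative settings did call members, as given for each gene. In Müller glia 8 of the 9 were tested, where 0.942% of 11145 genes passed, 3 of the 8 (Ide, Abca1 and Cst3) had an unadjusted p under 0.05 against 11.1% of all genes tested, and 3 did not overlap between genotypes against 41.2%. The median log2 fold change of the 8 was 0.02, beside 0.00 over all genes. In rods 0.00808% of genes passed, and of the 8 tested members 2 (Sorl1 and Abca1) had an unadjusted p under 0.05 against 8.27%, and 4 did not overlap against 42.4%. In amacrine cells 0.0535% passed, 2 of 8 (Apoe and Clu) had an unadjusted p under 0.05 against 4.72%, and 3 did not overlap against 33.0%. In rod bipolar cells 0.0% passed, 2 of 8 (Abca1 and Cst3) against 6.13% had an unadjusted p under 0.05, and 3 against 35.6% did not overlap. In cone bipolar cells 0.0% passed, with 1 of 7 (Abca1) against 5.93% and 3 of 7 against 36.3% on the same measures. In cones 0.0% passed, with 0 of 6 against 5.6% and 3 of 6 against 35.6%. In endothelial cells 0.096% passed, with 0 of 6 against 5.2% and 2 of 6 against 35.4%. In microglia, where 879 genes could be tested, 0.0% passed, with 1 of 3 (Apoe) against 9.33% and 1 of 3 against 37.2%. For the difference between Müller glia and rods, 2 of 8 (Sorl1 and Cst3) had an unadjusted p under 0.05 against 7.88%.

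**Figure D5:**
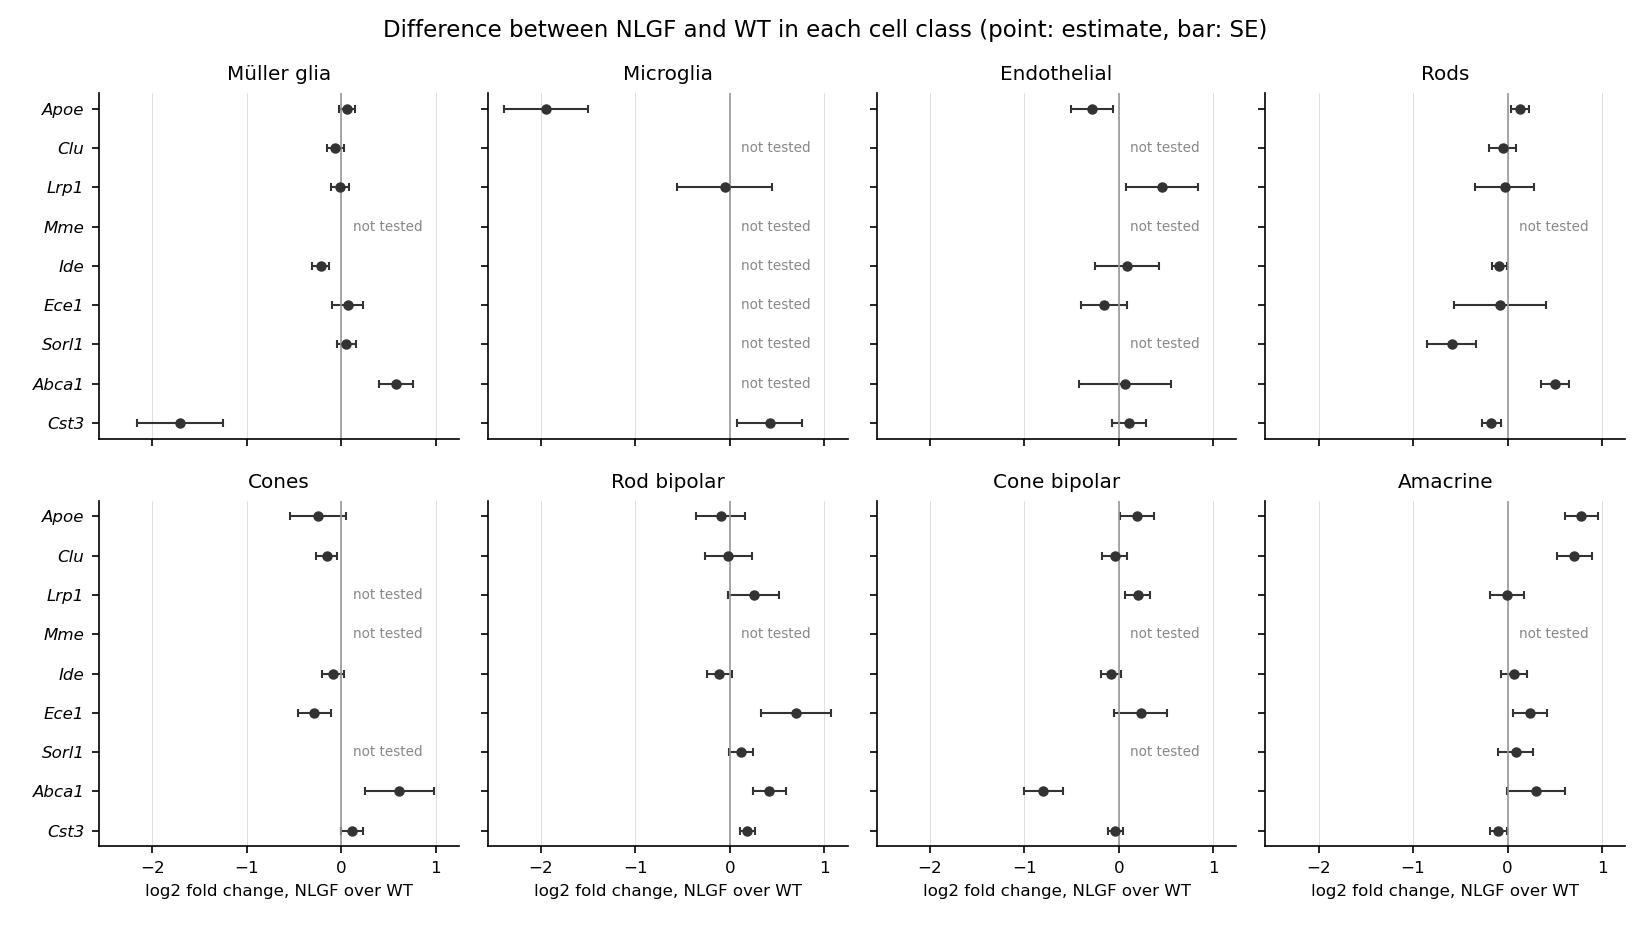
Log2 fold change of NLGF over WT (x axis) of the 9 genes (y axis) in 8 cell classes, where points are edgeR estimates and bars their SE (2 libraries per genotype, variances moderated over all genes), and genes removed by the filter on low counts are written as not tested. In Müller glia Apoe, Clu, Lrp1, Ece1 and Sorl1 lay within 0.07 of 0, Abca1 was at 0.58 and Cst3 at −1.70, and none of the values shown passed the adjusted threshold.

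The other genes of these pathways were taken from 5 lists with 85 names, of which 84 were in the files. In Müller glia 64 of them were tested, 0 rose and 2 fell, with 11 at an unadjusted p under 0.05 and a median log2 fold change of 0.01. Over all genes tested in this class 0.942% passed, 11.1% had an unadjusted p under 0.05 and the median was 0.00. Of the 16 lipoprotein receptors and trafficking genes tested none passed in either direction, and of the 16 genes of lipid carriers, efflux and LXR control none passed, with a median of 0.23. The list named amyloid-degrading proteases had 1 of 8 lower, Cpq, whose action on amyloid beta was not tested here. The extracellular chaperones and protease inhibitors had 1 of 15 lower, and of 9 cathepsin and lysosome genes none passed. Cpq, a secreted carboxypeptidase, fell to 74.8 and 69.4 CPM in the NLGF female and male, against 105 and 103 CPM in the WT female and male (log2 fold change −0.57 ± 0.13, edgeR adjusted p = 0.0394). The call was lost with DESeq2 (adjusted p = 0.749), with library totals in place of TMM (0.0505), with counts thinned to the smallest library (0.0970) and without the NLGF male (0.241). A2m, the protease inhibitor alpha-2-macroglobulin, had 2.43 and 5.30 CPM in the NLGF female and male, against 35.5 and 9.83 CPM in the WT female and male (−2.44 ± 0.55, edgeR adjusted p = 0.0446). Its call was lost without the WT female (−1.38, edgeR adjusted p = 0.281), in the deep cluster alone (−2.20, 0.0557) and with DESeq2 (0.997). Cells with astrocyte markers held 0.0% and 72.7% of its UMIs in the NLGF female and male and 95.7% and 35.0% in the WT female and male. Next by p-value, and short of the threshold, were Rxra, the partner receptor of LXR, with 22.3 and 26.5 CPM in NLGF and 9.83 and 13.8 CPM in WT (0.96 ± 0.27, edgeR adjusted p = 0.137), and the lipid transporter gene Abca8b (0.29 ± 0.10, 0.223). They were followed by Lcat, the enzyme that esterifies cholesterol on lipoproteins, with 3.88 and 5.78 CPM in the NLGF female and male and 31.0 and 4.43 CPM in the WT female and male (−1.71 ± 0.64, edgeR adjusted p = 0.310), and by the metalloprotease inhibitor Timp3 (0.27 ± 0.10, 0.311). In the other 7 classes 0 genes of these lists passed with edgeR, with 0 to 6 per class at an unadjusted p under 0.05, where the shares over all genes are those given for each class.

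Over the 32 class-by-library values, which share classes, libraries and depth, the genes whose log2(CPM + 1) followed each member most closely were found among 7588 genes by Pearson's r, as a description. For Apoe they were Cd9 (r = 0.96), Pmp22 and Ctsc, for Clu Gpm6b (0.91), Eno1 and Cox6b2, and for Cst3 Hcls1 (0.94), Fth1 and Rpl10a. For Lrp1 they were Reep5 (0.94), Psme1 and Specc1, and for Sorl1 Mt1 (0.83), Gpr37 and Dab1. Ide was closest to Prpf18 (0.94), Jmy and Rif1, and Ece1 to Lysmd2 (0.89), Tshz2 and Ptprg. Abca1 was closest to Cbl (0.75), Rpl35a and Msn. For Mme, with a mean of 0.20 CPM over these values, they were Hunk (0.64), Dlgap1 and Gde1.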

How the data were processed

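Single-cell RNA-seq was measured in 4 retinas. Each library was deposited as a matrix of unnormalised UMI counts for 32285 genes, made by the authors. The matrices were written by Cell Ranger 6.1.1, per the file headers, whereas Cell Ranger 3.1.0 with STAR and mm10 are named per the submitters' processing notes. Gene positions are from GENCODE M21 on GRCm38 (32158 IDs matched).

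Of 35191 barcodes, 33329 had 300 or more genes and no more than 20% of UMIs from mitochondrial genes and were kept. The automatic Scrublet threshold marked 2 cells, too few to be a working call, so cells scoring strictly above the bound of the highest 6% of each library were left out, 1770 in all, with ties at the bound kept. Counts were then scaled to a total of 10000 per cell and logged. Clustering used 2000 variable genes without the 9 members, 30 components, 20 neighbours and Leiden at resolution 1 (Python 3.11.15, scanpy 1.11.5, leidenalg 0.10.2). With the members kept, 98.3% of cells had the same class. Clusters took the class of highest marker z-score, and 4 stayed unnamed. Every class name stands for cells like that type (Müller-like, for example).

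Counts were summed per library and class. NLGF was compared with WT by edgeR 4.0.16 in R 4.3.3 (quasi-likelihood test, TMM, filterByExpr, Benjamini-Hochberg adjustment over all genes of the class, threshold 0.05, two-sided), with library as a block for Müller glia against rods. DESeq2 1.42.0 was an alternative. CPM are over the class total without TMM factors, and floors use 3 counts. Shares of cells were also computed at 1000 UMIs per cell. Sequences are from RefSeq. All 9 members are plotted in every class, and the text writes out fold changes for only some of the classes. Pathway genes past the threshold are named, filled up to 6 by smallest p in Müller glia. So are the 3 most alike genes per member with a mean of at least 20 CPM. The members and lists were chosen with earlier results of these data known. The test was checked on simulated counts. At changes of 1.5, 2 and 4 times it recovered 22.4%, 62.7% and 92.4% of the changed genes in Müller glia (11145 genes, 4 of 122 calls false) and 1.49%, 11.9% and 65.2% in microglia (879 genes). Those counts held no single cells of very high counts.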

Additional observations from a re-analysis of the deposited data

Results flagged for a closer look

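The genotype effect on Cst3 differed between Müller glia and rods by −1.28 ± 0.20 on the log2 scale (edgeR, adjusted p = 7.62e-07), which is the test of the difference itself. This SE and p-value come from variances moderated over all genes. They do not measure the spread of Cst3 itself between libraries, which ran from 392 to 3549 CPM in Müller glia. In Müller glia Cst3 was 392 and 959 CPM in the NLGF female and male, against 3549 and 749 CPM in the WT female and male. In rods it was 2381 and 2396 CPM in the NLGF female and male, against 2489 and 2615 CPM in the WT female and male. The difference was −0.027 without the WT female and −0.27 without the Müller-class cells that carried astrocyte markers.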

How the results depend on the processing

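Of 782 alternatives to 68 fold changes, 747 kept their direction and their side of the threshold, 23 came to pass it, 11 ceased to pass it and 1 turned its direction. A value within its standard error of 0 was given no direction. The turned value was Lrp1 in endothelial cells, −0.88 without the NLGF male (range −0.88 to 0.82 when 1 library was left out). The cause of each change below was not tested. For Cst3 in Müller glia against rods the value was −1.30 with DESeq2, −0.27 without astrocyte-marker cells and −2.39 to −0.027 when 1 library was left out. Members called in Müller glia went to 1 in the deepest cluster, with doublets kept, with no filter on low counts and without astrocyte-marker cells (Cst3 each time), and to 1 whichever library was left out. That was Apoe without the WT female and Cst3 without any other. Members called numbered 0 to 2 in rods (Abca1 and Cst3 without the WT female), 0 to 1 in microglia, 0 to 2 in amacrine cells and 0 to 1 for Müller glia against rods when 1 library was left out. For the last, 0 were called with DESeq2 and 0 without astrocyte-marker cells. In amacrine cells 2 (Apoe and Clu) were called with no filter and 2 with sex as a replicate block (Apoe 0.82, edgeR adjusted p = 0.00117, and Clu 0.71, 0.000657). The sexes share only that label, so they were not treated as pairs. The correlation of the deviations of same-sex libraries was 0.0255 to 0.350 over the classes, and the block changed no other call of a member. No block fit was made for Müller glia against rods, where library is the block.

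Over all genes, the amacrine count of 6 became 3 with DESeq2, 2 with doublets kept, 1 with library totals, 66 with no filter, 50 with the sex block, 1 with thinned counts and 11 to 55 when 1 library was left out. The cone bipolar count of 0 became 9 with doublets kept, 4 with the members kept for clustering, 34 with no filter, 5 with the block and 9 to 40 by library. The cone count of 0 became 29 with the block and 0 to 60 by library. The endothelial count of 5 became 3 with DESeq2, 20 with no filter, 2 with thinned counts and 13 to 39 by library. The microglial count of 0 became 8 with no filter and 7 to 86 by library. The Müller count of 105 became 43 with DESeq2, 238 with doublets kept and 125 to 286 by library. The rod bipolar count of 0 became 1 with doublets kept, 1 with library totals, 42 with no filter, 1 with the block, 25 with thinned counts and 17 to 33 by library. The rod count of 1 became 0 with library totals, 112 with no filter, 155 with the block and 14 to 700 by library. The count of 44 for Müller glia against rods became 8 with DESeq2, 81 with doublets kept and 27 to 139 by library. Among barcodes of at least 1000 UMIs, 66 of 72 levels moved by less than 1 SD, and the other 6 were all in rods, where Apoe fell to 67.4 CPM. A lone library left in a genotype is assumed to vary like the others. Microglia and endothelial cells, with 12 to 30 cells per library, limit all their values.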
